A study of Mus musculus with 6 samples.

Results

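The clock output transcription factors are the DNA-binding proteins through which the circadian clock passes its rhythm to other genes. In all, 8 of the 23314 genes in the expression matrix were taken by their symbols: Dbp, Tef, Hlf, Nfil3, Ciart, Bhlhe40, Bhlhe41 and Npas2. Their transcripts were measured by RNA sequencing in the quadriceps, a thigh muscle, of mice at 2 months of age. K15SKO mice had the genotype Myogenin-Cre/+;K15F/F, in which Cre made under Myogenin, a gene of differentiating muscle, acts on floxed Klf15, the gene of a zinc-finger transcription factor. MyoCre mice had the genotype Myogenin-Cre/+ and carried the same Cre, with no floxed Klf15 given in the labels. Each group held 3 libraries, while the design text gives n = 4. Cells of the quadriceps in which Myogenin is not switched on are not targeted by this Cre. No source used here gives the hour of dissection, which sets the level of any rhythmic gene, or the sex. Nothing in the labels says that the libraries came from different animals, so each p-value covers the spread between these libraries alone.

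In the core loop of the mammalian clock, the proteins of Clock and Arntl (BMAL1) bind E-boxes and switch on the Per and Cry genes, whose products then block them. Dbp, Tef and Hlf encode the PAR bZIP factors, which activate genes through D-boxes, and Nfil3 (E4BP4) encodes a related bZIP protein that represses through the same sites. Bhlhe40 (DEC1) and Bhlhe41 (DEC2) encode repressors that occupy E-boxes, Ciart (CHRONO) encodes a repressor of the CLOCK and BMAL1 pair, and Npas2 encodes a paralogue of CLOCK. Dbp, Tef, Hlf and Ciart are driven mainly through E-boxes, whereas Nfil3 and Npas2 are driven through elements bound by ROR activators and REV-ERB repressors.

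Letters that match some of these elements can be read before the transcription starts of several of the genes. RefSeq promoter sequences on GRCm38.p6 were matched by symbol for 7 of the 8 genes, all but Bhlhe40, with 2 starts for Tef. The 250 bases before each start were searched on both strands for the E-box CACGTG, the D-boxes TTATGTAA and TTACGTAA, the ROR elements TAGGTCA and TGGGTCA, and the GC box CCCGCCC, a kind of sequence that Krüppel-like factors bind. Matches of one motif may overlap each other. The following stretches are shown because they hold the E-boxes of Ciart, Tef and Bhlhe41, the ROR element of Nfil3 and the GC boxes of Hlf, each marked in capitals:
Ciart, chr3:95882259-95882358, minus strand: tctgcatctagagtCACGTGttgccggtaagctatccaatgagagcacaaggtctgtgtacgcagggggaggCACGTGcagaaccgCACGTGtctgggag
Tef start 1, chr15:81802523-81802572, plus strand: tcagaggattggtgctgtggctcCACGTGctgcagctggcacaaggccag
Tef start 2, chr15:81811254-81811303, plus strand: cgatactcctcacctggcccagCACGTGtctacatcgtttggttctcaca
Bhlhe41, chr6:145865541-145865590, minus strand: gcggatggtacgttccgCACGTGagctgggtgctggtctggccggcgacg
Nfil3, chr13:52981040-52981089, minus strand: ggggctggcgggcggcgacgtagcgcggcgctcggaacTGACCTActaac
Hlf, chr11:90390948-90391017, minus strand: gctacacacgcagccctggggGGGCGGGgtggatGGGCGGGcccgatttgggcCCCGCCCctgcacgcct

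Ciart held 3 E-boxes, beginning 116, 58 and 44 bases before its start. Tef held 1 before each of its starts and Bhlhe41 held 1. An E-box lay in 6.02% of all 32851 RefSeq windows of this length. The ROR element of Nfil3 began 12 bases before its start, on the opposite strand, and such an element lay in 5.38% of all windows. A GC box lay in 5 of the 8 windows of these genes, 1 each of Tef, Hlf, Nfil3, Ciart and Bhlhe41, with 5 matches at Nfil3 and 3 at Hlf, against 23.4% of all windows. No window of the 7 genes held a D-box, which lay in 0.931% of all windows, and the windows of Dbp and Npas2 held none of the 4 motifs. By the GENCODE coordinates given below, the windows of Npas2 and Tef lay wholly inside the gene. Those of Dbp, Nfil3, Ciart and Bhlhe41 lay partly inside it, as did the ROR element of Nfil3 in full. An absence in these windows is therefore not an absence before every annotated start. A match is a run of letters in a short window and not a measured binding site.

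**Figure D1:**
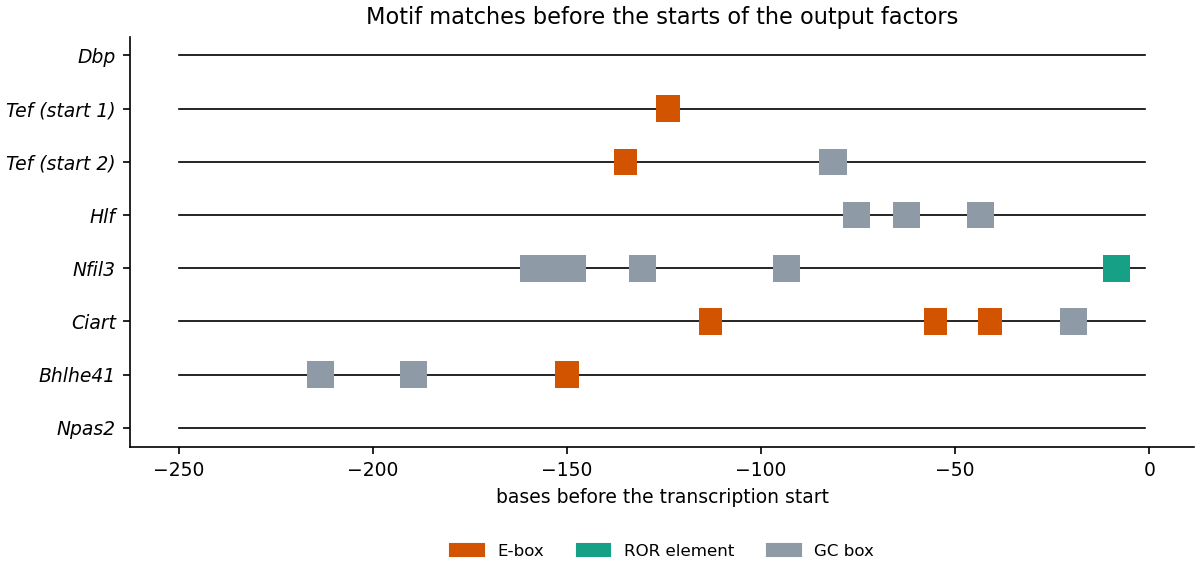
Positions of motif matches in the 250 bases before the RefSeq starts of 7 clock output genes, in bases before the start. E-boxes (orange) lie before Tef, Ciart and Bhlhe41, the ROR element (green) lies before Nfil3, and GC boxes (grey) lie before 5 of the genes.

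Levels are given in FPKM, a count of fragments divided by the length of the transcript and the size of the library, so levels of different genes can be compared. Klf15 itself stood at 2.22, 21.7 and 5.32 FPKM in K15SKO libraries 1 to 3, against 35.2, 28.4 and 30.5 FPKM in MyoCre 1 to 3. K15SKO 2 thus kept the most of the targeted transcript, and no source used here gives the deleted part of the gene. Over the genes tested, K15SKO 3 correlated across genes at 0.942 and 0.880 with K15SKO 1 and 2, and at 0.968 to 0.975 with the MyoCre libraries. The library labelled K15SKO 3 therefore lay nearer to the other group than to its own, and results that rest on it are given with and without it. K15SKO 1 in turn correlated at 0.915 with K15SKO 2 and at 0.928 to 0.936 with the MyoCre libraries. The K15SKO libraries thus did not form a close group. Muscle fibre markers such as Ttn and Ryr1 summed to 6631 to 11408 FPKM in K15SKO and 9524 to 12175 FPKM in MyoCre, which fits the labelled tissue. The 15 liver markers summed to 92.2, 6490 and 20.4 FPKM in K15SKO 1 to 3 and to 20.8 to 39.3 FPKM in MyoCre, and 13 of the 15 were higher in every K15SKO library than in any MyoCre library. The 10 macrophage markers summed to 342, 192 and 39.7 FPKM in K15SKO 1 to 3 and to 43.4 to 52.4 FPKM in MyoCre. The 8 satellite cell and regenerating muscle markers summed to 108, 83.4 and 29.7 FPKM in K15SKO 1 to 3 and to 22.1 to 32.9 FPKM in MyoCre, and 5 of the 8 were higher in every K15SKO library. The 5 were Myog, Myh3, Myh8, Cdkn1c and Ncam1, while Pax7, Myf5 and Myod1 of the same list overlapped between the groups. Myog, the differentiation factor myogenin, stood at 31.9, 27.3 and 3.90 FPKM in K15SKO libraries 1 to 3, against 2.36, 2.20 and 1.84 FPKM in MyoCre 1 to 3. The 6 fibroblast markers summed to 331, 234 and 161 FPKM in K15SKO 1 to 3 and to 176 to 200.2 FPKM in MyoCre. They did not move as a set: 2 of the 6, Dcn and Pdgfra, were lower in every K15SKO library and 0 were higher in every one. The 8 adipocyte markers summed to 185, 124 and 245 FPKM in K15SKO 1 to 3 and to 424 to 1093 FPKM in MyoCre, and all 8 were lower in every K15SKO library. Of all 11607 genes tested, 13.4% were higher and 11.3% lower in every K15SKO library than in any MyoCre library. In such bulk tissue, fewer cells of a type and less RNA per cell cannot be told apart.

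The PAR bZIP genes Tef and Dbp were the most abundant clock outputs of the quadriceps. In K15SKO the order of mean levels was Tef at 99.8, Dbp at 76.1, Bhlhe40 at 48.0, Bhlhe41 at 18.3, Nfil3 at 14.7, Ciart at 5.0, Hlf at 3.36 and Npas2 at 0.0874 FPKM. In MyoCre it was Tef at 119, Dbp at 84.1, Bhlhe40 at 65.3, Nfil3 at 20.6, Bhlhe41 at 17.3, Hlf at 6.03, Ciart at 5.13 and Npas2 at 0.0475 FPKM. The ranges of Nfil3 and Bhlhe41 overlapped in each group, as did those of Hlf and Ciart. Within libraries, Ciart was above Hlf in 3 of 3 K15SKO libraries and in 1 of 3 MyoCre libraries, and Bhlhe41 was above Nfil3 in 2 of 3 libraries of each group. The other neighbours did not overlap in either group. Tef and Dbp lay above 94.9% and 92.8% of the 11607 genes tested by mean level, whereas Ciart and Hlf lay above 39.7% and 37.7%.

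None of the 7 output factors that could be tested passed an adjusted p of 0.05, and 6 of the 7 had a lower mean in K15SKO on the log2 scale. The test was limma on log2(FPKM + 1), adjusted over all 11607 genes with a mean of at least 1 FPKM, and called 0.0172% of genes higher and 0.0345% lower. When genes listed at 0 in a whole group were left out, it called 0. A log2 difference below 0 was found for 52% of all genes tested. At an unadjusted p under 0.05, Hlf and Bhlhe40 were lower and no member was higher, where 8.12% of all genes were lower and 8.43% higher. Dbp, Hlf and Bhlhe40 were lower in every K15SKO library than in any MyoCre library, and 11.3% of all genes tested were. With so few members, these counts are values and not a result about the group. Hlf had an unadjusted limma p of 0.0205, which was 0.0751 without MyoCre 2 and 0.0504 without MyoCre 3. Bhlhe40 had an unadjusted limma p of 0.0328, which was 0.0899 without K15SKO 1, 0.0725 without K15SKO 3, and 0.0910, 0.0931 and 0.0520 without MyoCre 1, 2 or 3 in turn. It was also 0.0628 with median-of-ratios rescaling and 0.0691 with array weights, where the log2 difference was −0.29. The median log2 difference was −0.27 over the 7 genes and −0.015 over all genes tested, and the 95% CI given below is that of the log2 difference.

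**Figure D2:**
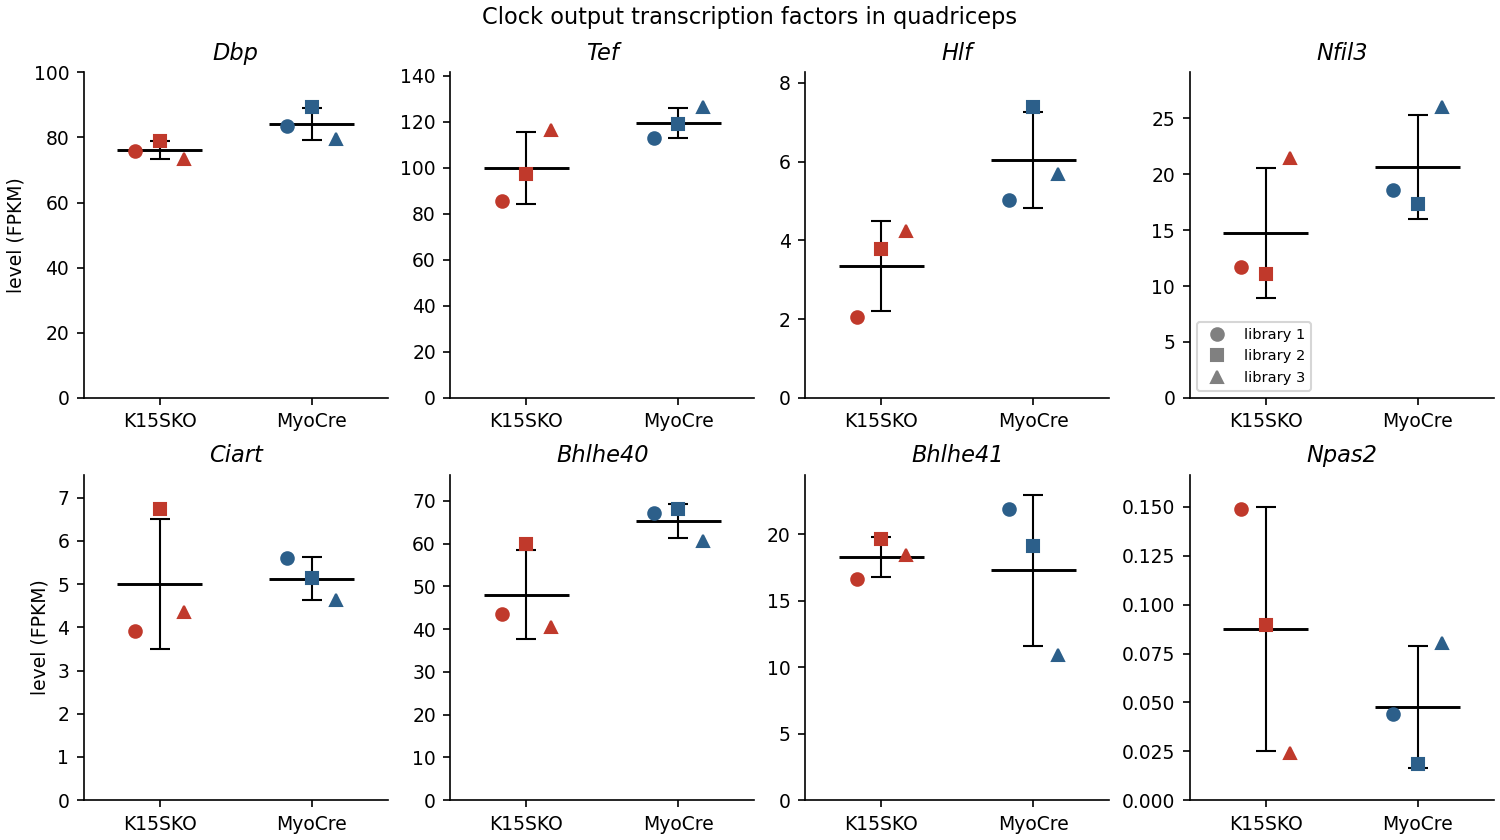
Level in FPKM of each clock output gene in K15SKO (left, red) and MyoCre (right, blue). Points are libraries, the horizontal line is the mean and the bar is the SD (n = 3 each), and each axis starts at 0. Dbp, Hlf and Bhlhe40 are the genes whose groups do not overlap, and Npas2 stays under 0.15 FPKM in every library.

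Hlf, hepatic leukaemia factor, was the PAR bZIP gene with the largest difference. It stood at 2.06, 3.77 and 4.24 FPKM in K15SKO libraries 1 to 3, against 5.01, 7.38 and 5.70 FPKM in MyoCre 1 to 3. Every K15SKO library was below every MyoCre library, and K15SKO 1 was the lowest. The mean was 3.36 ± 1.15 FPKM in K15SKO and 6.03 ± 1.22 FPKM in MyoCre (SD, n = 3 each), so that K15SKO stood at 55.6% of the MyoCre mean. The log2 difference was −0.71 (SE 0.23, 95% CI −1.28 to −0.15, limma adjusted p = 0.275, lower in 3 of 3 libraries). Without K15SKO 1 the difference was −0.48, without K15SKO 2 it was −0.80, and without K15SKO 3 it was −0.87 with a limma adjusted p of 0.0547. Hlf is also a gene of the liver, and the part of the liver transcripts of K15SKO 2 in its values was not tested. The 8 adipocyte markers were lower in every K15SKO library too. The part of adipocyte transcripts in the Hlf, Dbp and Bhlhe40 values was not tested.

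Dbp, a D-box binding PAR factor whose transcript has a very strong daily rhythm in most tissues, varied little between the libraries. It stood at 75.8, 79.0 and 73.5 FPKM in K15SKO libraries 1 to 3, against 83.5, 89.3 and 79.6 FPKM in MyoCre 1 to 3. The groups did not overlap, but the gap between K15SKO 2 and MyoCre 3 was under 1 FPKM. Its log2 difference was −0.14 (SE 0.10, 95% CI −0.39 to 0.11, limma adjusted p = 0.461). Without K15SKO 3, its lowest library, the difference was −0.12. The highest of the 6 libraries was 1.21 times the lowest, a log2 range of 0.28 where the median gene tested had 0.57, and 9.86% of genes tested had a smaller range. Hlf spanned a log2 range of 1.45 over the same libraries.

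Tef, thyrotroph embryonic factor, differed between the K15SKO libraries. It stood at 85.6, 97.3 and 116 FPKM in K15SKO libraries 1 to 3, against 113, 119 and 126 FPKM in MyoCre 1 to 3. K15SKO 1 and 2 were below all MyoCre libraries and K15SKO 3 was among them. On the log2 scale the difference was −0.27 (SE 0.14, 95% CI −0.61 to 0.08, limma adjusted p = 0.360). Without K15SKO 3 it was −0.38 with a limma adjusted p of 0.0459, in a fit that called 12.8% of all genes lower. Without K15SKO 1 it was −0.16 with a limma adjusted p of 0.656.

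Nfil3, the repressor that competes with the PAR bZIP factors for D-boxes, was likewise lower in K15SKO 1 and 2 than in K15SKO 3. It stood at 11.7, 11.0 and 21.5 FPKM in K15SKO libraries 1 to 3, against 18.6, 17.4 and 26.0 FPKM in MyoCre 1 to 3. K15SKO 1 and 2 were again below the MyoCre range and K15SKO 3 was inside it. Its log2 difference was −0.50 (SE 0.28, 95% CI −1.17 to 0.17, limma adjusted p = 0.371). Without K15SKO 3 it was −0.79 with a limma adjusted p of 0.0369. It was −0.34 without K15SKO 2 and −0.33 without MyoCre 3, with limma adjusted p of 0.613 and 0.652. The sums of macrophage, fibroblast, and satellite cell and regenerating muscle markers were high in the same K15SKO 1 and 2, as listed above. Not every marker of the fibroblast and satellite cell lists was. The part of any of these cell types in the Nfil3 and Tef values was not tested. Nfil3 is known from myeloid and lymphoid cells too. The 9 lymphocyte markers summed to no more than 0.419 FPKM in K15SKO and 0.573 FPKM in MyoCre. Of those 9, Cd3e, Cd3g, Cd4, Cd8a, Ncr1 and Nkg7 were at 0 in K15SKO 3.

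The balance of D-box activators over their repressor was compared within each library. Dbp, Tef and Hlf summed to 164, 180 and 194 FPKM in K15SKO libraries 1 to 3, against 201, 216 and 212 FPKM in MyoCre 1 to 3, so the sums did not overlap. Divided by Nfil3, the sum was 14.0, 16.3 and 9.05 in K15SKO libraries 1 to 3, against 10.9, 12.4 and 8.14 in MyoCre 1 to 3. K15SKO 1 and 2 were above every MyoCre library in this ratio, and the groups overlapped through K15SKO 3. Activators and repressor were both lower in K15SKO 1 and 2, with Nfil3 at 56.6% and 53.5% of its MyoCre mean. Within the sum, Hlf made up 1.26%, 2.10% and 2.18% in K15SKO libraries 1 to 3, against 2.49%, 3.42% and 2.69% in MyoCre 1 to 3. The Hlf share was thus lower in each K15SKO library, while the shares of Dbp and Tef overlapped between the groups. The sum and the shares are made from the gene values above and are no separate result.

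**Figure D3:**
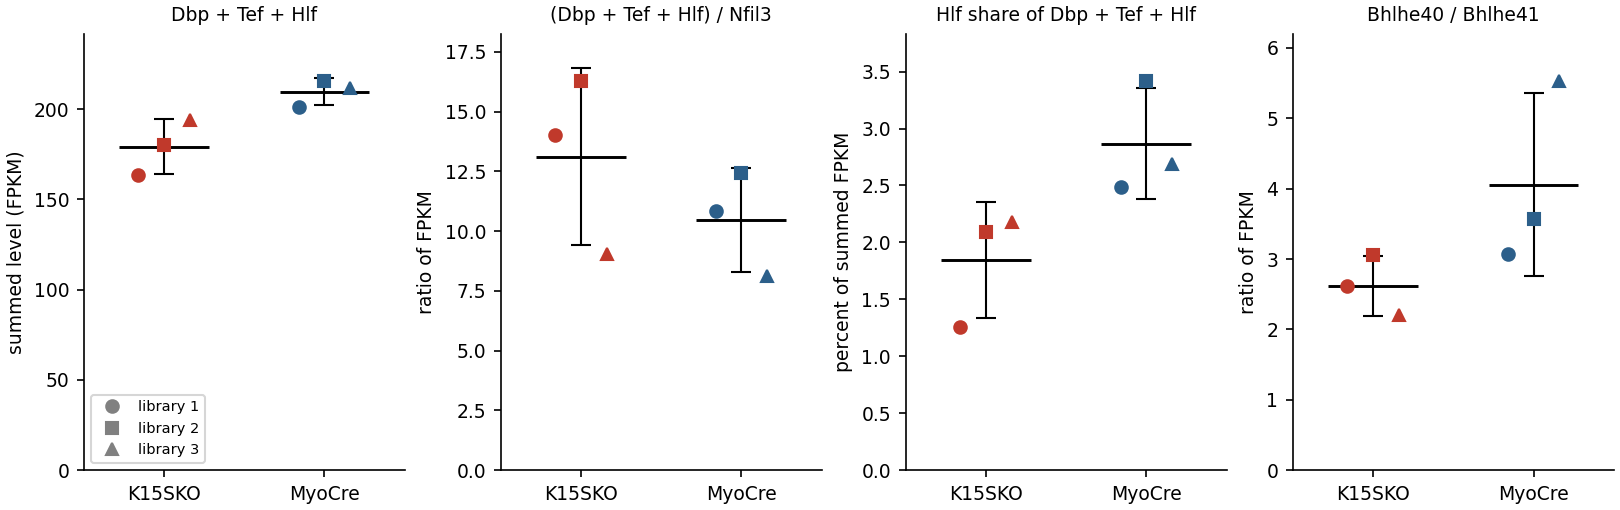
Sums and ratios of FPKM within each library, K15SKO (left, red) and MyoCre (right, blue), with points for libraries and the mean ± SD (n = 3 each). The sum of Dbp, Tef and Hlf, the Hlf share of it and the ratio of Bhlhe40 to Bhlhe41 do not overlap between the groups, and the ratio to Nfil3 does.

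The E-box repressors Bhlhe40 and Bhlhe41 differed from each other in how they varied. Bhlhe40 stood at 43.5, 60.0 and 40.6 FPKM in K15SKO libraries 1 to 3, against 67.2, 68.0 and 60.6 FPKM in MyoCre 1 to 3. The groups did not overlap, yet K15SKO 2 came within 1 FPKM of MyoCre 3, while K15SKO 1 and 3 lay well below. Its mean was 48.0 ± 10.4 FPKM in K15SKO and 65.3 ± 4.05 FPKM in MyoCre (SD, n = 3 each). The log2 difference was −0.45 (SE 0.17, 95% CI −0.86 to −0.05, limma adjusted p = 0.286, lower in 3 of 3 libraries). K15SKO 2, the library in which Bhlhe40 was nearest to MyoCre, also kept the most Klf15 and had the most liver transcripts. The part of either in its Bhlhe40 value was not tested. Without K15SKO 2 the log2 difference of Bhlhe40 was −0.62.

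Bhlhe41 stood at 16.7, 19.7 and 18.5 FPKM in K15SKO libraries 1 to 3, against 21.9, 19.1 and 11.0 FPKM in MyoCre 1 to 3. The K15SKO values lay inside the MyoCre range, which MyoCre 3 extended downwards. The log2 difference was 0.12 (SE 0.25, 95% CI −0.47 to 0.72, limma adjusted p = 0.776), and without MyoCre 3 it was −0.16. The interval does not show that the groups are alike. Bhlhe40 was 2.61, 3.05 and 2.20 times Bhlhe41 in K15SKO libraries 1 to 3, against 3.07, 3.56 and 5.54 times in MyoCre 1 to 3. Bhlhe40 was the larger of the pair in all 6 libraries, and the gap between the groups in this ratio was small, at 3.05 in K15SKO 2 against 3.07 in MyoCre 1.

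Ciart, the CHRONO repressor with 3 E-boxes before its start, did not separate the groups. It stood at 3.92, 6.73 and 4.36 FPKM in K15SKO libraries 1 to 3, against 5.61, 5.14 and 4.63 FPKM in MyoCre 1 to 3. K15SKO 2 was the highest of the 6 libraries, and K15SKO 1 and 3 were below all MyoCre libraries. The log2 difference was −0.06 (SE 0.18, 95% CI −0.50 to 0.39, limma adjusted p = 0.872). Without K15SKO 2, the library with the most liver transcripts, it was −0.25 (limma adjusted p = 0.477). The part of those transcripts in the Ciart value was not tested.

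Npas2, the CLOCK paralogue, was close to the floor of the measurement. It was listed at 0.149, 0.0896 and 0.0240 FPKM in K15SKO libraries 1 to 3, against 0.0438, 0.0183 and 0.0805 FPKM in MyoCre 1 to 3, and did not pass the filter of 1 FPKM. The values overlapped and are too low to order the libraries. With no filter the log2 difference was 0.05 (SE 0.05, limma adjusted p = 0.614). Clock stood at 3.83, 4.38 and 3.81 FPKM in K15SKO libraries 1 to 3, against 4.71, 4.83 and 5.20 FPKM in MyoCre 1 to 3. Npas2 therefore made up 0.626% to 3.73% of the summed level of the pair in K15SKO and 0.378% to 1.52% in MyoCre.

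No K15SKO library was low for every output factor. Of the 7 tested genes, 6 were under all MyoCre libraries in K15SKO 1, 5 in K15SKO 2 and 4 in K15SKO 3. Of all genes tested, 43.2%, 43.8% and 25.3% were under all MyoCre libraries in K15SKO 1, 2 and 3, and with 7 genes these counts are values only. K15SKO 3 was the lowest K15SKO library for Dbp and Bhlhe40 and the highest for Tef, Hlf and Nfil3. On the log2 scale Bhlhe40 was 0.67 below the MyoCre mean in K15SKO 3 while Tef was 0.04 below and Nfil3 0.07 above. Nr1d1, which encodes the REV-ERB alpha repressor, was 0.70 below the MyoCre mean in that library, and Per1 was 1.17 above.

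**Figure D4:**
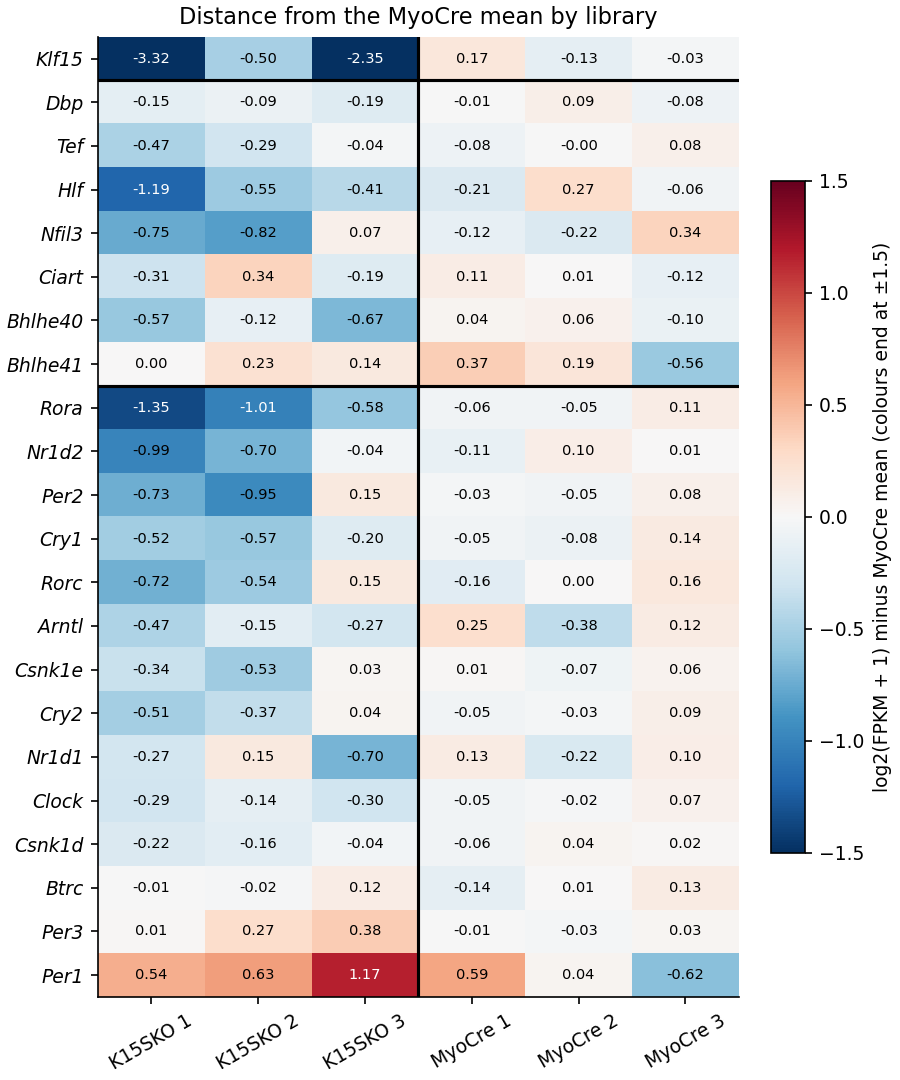
Distance of each library from the MyoCre mean on log2(FPKM + 1), for Klf15 (top row), the 7 tested output factors and 14 core clock genes (rows) in the 6 libraries (columns). Blue is below and red above the MyoCre mean, with colours ending at ±1.5. In K15SKO 3, Bhlhe40 lies at −0.67 and Tef at −0.04.

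The core clock genes that drive these outputs were read beside them. Of 14 tested core clock genes, 3 were lower and 0 higher at an unadjusted p under 0.05, and 0 passed the adjusted threshold. Of all genes tested, 8.12% were lower and 8.43% higher at that unadjusted p, and 11.3% were lower with no overlap of the groups. The same shares stand beside the counts of the lists below, and with so few genes these counts are values only. Their median log2 difference was −0.28, near the −0.27 of the output factors. Rora, an activator through ROR elements, stood at 9.12, 11.8 and 16.3 FPKM in K15SKO libraries 1 to 3, against 23.8, 23.9 and 26.7 FPKM in MyoCre 1 to 3 (log2 difference −0.98, limma adjusted p = 0.248). The Cry1 and Clock groups did not overlap either, with log2 differences of −0.43 and −0.24. Per1 went the other way at 0.78 (limma adjusted p = 0.303), with overlapping groups.

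**Figure D5:**
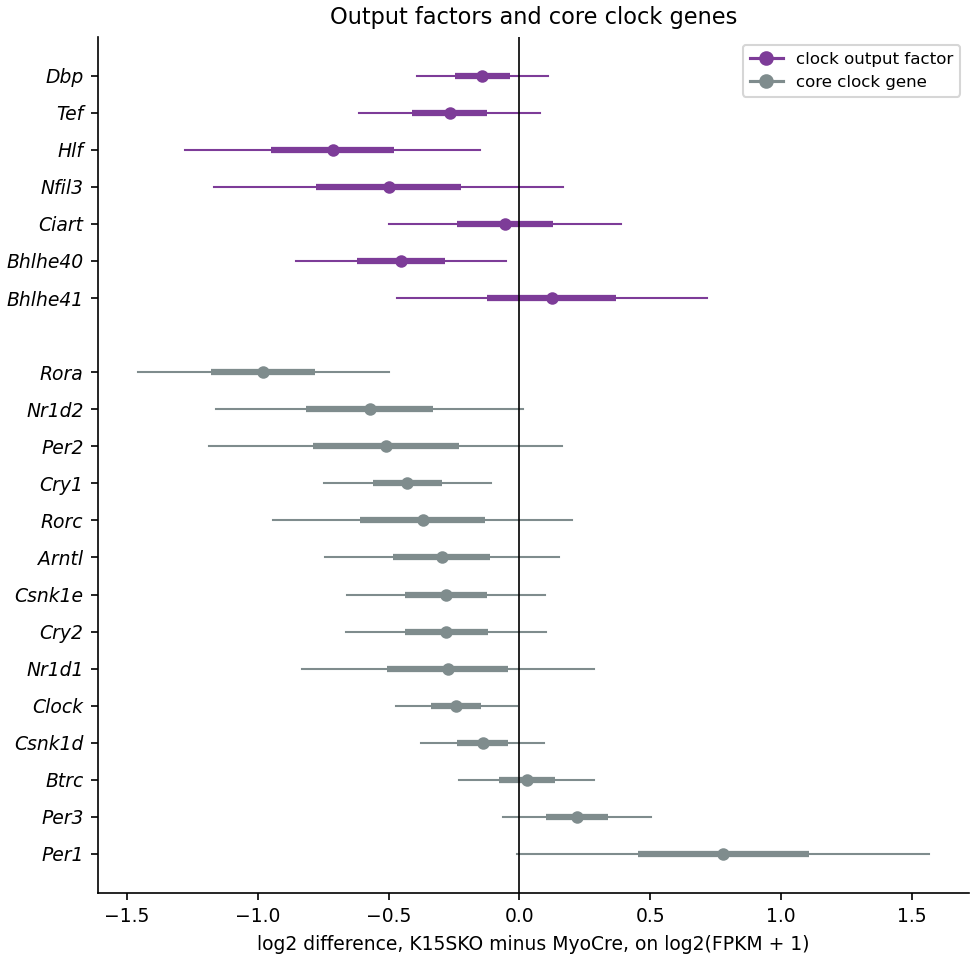
Log2 differences of K15SKO minus MyoCre on log2(FPKM + 1) for the 7 tested output factors (purple) and 14 core clock genes (grey). Points are limma estimates, thick bars are the SE and thin bars are the 95% CI. Hlf at −0.71 and Bhlhe40 at −0.45 are the output factors whose interval does not reach 0, and none of the genes passes the adjusted threshold.

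Sorted by their known drive, the arms of the clock gave similar medians. The 12 E-box driven genes, which include 6 of the output factors, had a median log2 difference of −0.27, with 2 lower and 0 higher at an unadjusted p under 0.05. The 5 tested genes driven through ROR and REV-ERB elements, which include Nfil3, had a median of −0.37, with 2 lower and 0 higher. Dbp over Arntl, an E-box output over a ROR-driven gene of the opposite phase, was 20.7, 16.5 and 16.9 in K15SKO libraries 1 to 3, against 12.5, 22.5 and 13.2 in MyoCre 1 to 3. Nr1d1 over Arntl was 16.3, 16.8 and 10.2 in K15SKO libraries 1 to 3, against 11.9, 15.6 and 12.9 in MyoCre 1 to 3. Both ratios overlapped between the groups.

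Known targets of the PAR bZIP factors were then read beside Dbp, Tef and Hlf. Of 12 such genes, 1 was lower and 0 higher at an unadjusted p under 0.05, with a median log2 difference of −0.07. That median includes Nr1i3, Ces2a and Cyp2a5, at 0.98, 0.99 and 1.74, which passed the filter only through K15SKO 2. It is therefore not a measure of the targets in muscle alone. The lower gene was Rora, and Per1, Nr1d2 and Per3 came next at 0.78, −0.57 and 0.22. Pdxk, pyridoxal kinase of vitamin B6 metabolism, stood at 2.84, 2.51 and 3.89 FPKM in K15SKO libraries 1 to 3, against 3.37, 4.06 and 3.23 FPKM in MyoCre 1 to 3, with overlapping groups. The liver targets Nr1i3, Ces2a and Cyp2a5 were at 5.79, 6.41 and 23.0 FPKM in K15SKO 2 and at no more than 0.519 FPKM in K15SKO 1 and 3. In MyoCre, Ces2a and Cyp2a5 were listed at 0 and Nr1i3 reached 0.0668 FPKM. Among 11 tested genes that cycle in many tissues, 1 was lower and 1 higher at an unadjusted p under 0.05, with a median of 0.02. The lower one, Nampt, makes the precursor of NAD and stood at 44.3, 37.2 and 52.5 FPKM in K15SKO libraries 1 to 3, against 58.9, 62.4 and 69.5 FPKM in MyoCre 1 to 3. The higher one, Cdkn1a, the cell cycle inhibitor p21, stood at 20.5, 13.9 and 10.3 FPKM in K15SKO libraries 1 to 3, against 7.61, 5.22 and 5.28 FPKM in MyoCre 1 to 3. Neither passed the adjusted threshold (limma adjusted p = 0.272 and 0.251). Coq10b and Pdxk were next, with overlapping groups.

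For each tested factor, the 2 genes with the most similar profile were those with the smallest root mean square difference of log2 deviations from the MyoCre mean over the 6 libraries. For Dbp these were Rfesd and Lcor, at 0.015 and 0.034 log2 units, and for Tef Eea1 and Rabgap1, both at 0.027. Hlf was matched by Ccdc50 and Homer1 at 0.085 and 0.098, and Nfil3 by Adcy4 and Krba1 at 0.052 and 0.053. Ciart was matched by BC051226 and Ctf1 at 0.051 and 0.063. The nearest genes to Bhlhe40 were Mpzl3 and Acsl4 at 0.11 and 0.12, and to Bhlhe41 Ypel2 and Rnaset2a at 0.13 and 0.17. Profiles of the DEC genes thus had the more distant neighbours, and the measure favours genes that vary little. Ccdc50, nearest to Hlf, stood at 15.9, 21.0 and 26.6 FPKM in K15SKO libraries 1 to 3, against 28.6, 43.8 and 33.6 FPKM in MyoCre 1 to 3, with no overlap.

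All 8 genes are protein-coding, and GENCODE M21 on GRCm38 places Hlf on chromosome 11 from 90336536 to 90390895 and Nfil3 on chromosome 13 from 52967209 to 52981073, with no gene overlapping either. Dbp lies on chromosome 7 from 45705088 to 45710203 and overlaps Sphk2 on the opposite strand. Sphk2 stood at 6.13, 6.04 and 7.24 FPKM in K15SKO 1 to 3 and at 7.51, 5.10 and 6.70 FPKM in MyoCre 1 to 3, far under Dbp. Bhlhe40 and Bhlhe41 lie on chromosome 6 from 108660629 to 108666925 and from 145858243 to 145865558. Tef lies on chromosome 15 from 81802421 to 81826863, Ciart on chromosome 3 from 95878503 to 95882251 and Npas2 on chromosome 1 from 39193731 to 39363236. Each of these last 5 overlaps a gene on the opposite strand, all listed under 0.45 FPKM in every library. No source used here gives the strand setting of the authors' counting, so such reads cannot be told apart. Npas2 also overlaps Gm3617 on its own strand.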

How the data were processed

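The authors deposited FPKM values for 23314 genes in 6 libraries. STAR, Cufflinks, Cuffdiff and the mm10 build are named in the submitters' processing notes, without versions. The matrix names no unit, so FPKM was read from those tools and the values. FPKM keeps no counts: depth is unknown, and no counting interval is given. From the steps of values under 0.1 FPKM, depth relative to MyoCre 1 was 0.779, 1.57 and 0.901 in K15SKO 1 to 3 and 1.08 and 1.33 in MyoCre 2 and 3.

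Genes with a mean of at least 1 FPKM (11607) were fitted on the log2(FPKM + 1) scale by limma 3.58.1, run in R 4.3.3 (eBayes with trend, two-sided, Benjamini-Hochberg, threshold 0.05). This scale understates changes of low genes. The fit was tested on simulated data. Tables and plots used Python 3.11.15, pandas 2.3.3 and matplotlib 3.10.9. Genes and lists were chosen with earlier results of these data known. Named were the 8 factors, Klf15, up to 4 genes per list by smallest p, the clock regulators of a factor, and 2 genes nearest to each factor. Other listed genes, such as Vegfa and the liver targets, were named after their values were seen. One gene of the core clock list is not reported here and is not in its counts. Alternatives changed the pseudocount, filter, scaling, moderation, weights, pairing and genes at 0, or left out each library.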

Additional observations from a re-analysis of the deposited data

How the results depend on the processing

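The count of genes past the adjusted threshold was 6, and the count at an unadjusted p under 0.05 was 1920. The first count was 3 with no filter, 3 with the replicate number as a block and 2398 with array weights, and ran from 3 to 2743 as each library was left out. The lowest, 3, came without MyoCre 1 and without MyoCre 2, and the highest without K15SKO 3. Without genes at 0 in a whole group, the first count was 0 and the second 1930, both from limma. The second count was 4790 with array weights and ran from 902 without MyoCre 2 to 4778 without K15SKO 3. Array weights gave K15SKO 3 a weight of 0.2. Dbp, Tef, Hlf, Nfil3 and Bhlhe40 kept a negative log2 difference in every alternative run, and their adjusted p crossed the threshold for Tef and Nfil3 without K15SKO 3, as given in the report. Bhlhe41 ran from −0.16 without MyoCre 3 to 0.31 without MyoCre 1. Ciart ran from −0.25 without K15SKO 2 to 0.11 with array weights. Its difference was positive in 4 alternatives, the others being 0.074 without K15SKO 1, 0.01 without K15SKO 3 and 0.00086 without MyoCre 1. The cause of these changes was not tested. Hlf had no value with a filter of 5 FPKM, which it did not pass, and Npas2 was fitted with no filter alone. Same-numbered libraries had correlations of 0.0024, 0.085 and 0.094 in their deviations. The last of these were the highest for libraries 2 and 3, while MyoCre 1 was at 0.0066 with K15SKO 2 and 0.0024 with K15SKO 1. Correlations so low cannot decide whether the numbers are pairs. The labels name no pairs, so the numbers were not taken as such. With the block, Hlf, Nfil3 and Bhlhe40 had limma adjusted p of 0.270 each, and no factor crossed the adjusted threshold. The unadjusted p of Nfil3 was 0.0114 with the block and 0.0115 with array weights, against 0.118 without either, and that of Tef was 0.0420 with quantile normalization and 0.0239 with array weights, against 0.109. The matrix holds no counts, so the precision of Npas2 and other low values cannot be stated.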

Other observations

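Genes that carry outside signals to the clock outputs were read in the same fit. Bhlhe40 and Bhlhe41 are known targets of hypoxia-inducible factors, and 11 genes that respond to hypoxia had a median log2 difference of −0.33, with 1 lower and 0 higher at an unadjusted p under 0.05. The lower one, Adm, the vasodilator adrenomedullin, stood at 1.26, 0.808 and 1.04 FPKM in K15SKO libraries 1 to 3, against 1.88, 1.86 and 1.57 FPKM in MyoCre 1 to 3 (limma adjusted p = 0.279). Ankrd37, Bnip3 and Egln3 came next at −0.44, −0.33 and 0.40, and their groups overlapped. Vegfa, named after its values were seen, stood at 43.7, 39.0 and 105 FPKM in K15SKO libraries 1 to 3, against 88.7, 74.1 and 76.5 FPKM in MyoCre 1 to 3. It was thus low in K15SKO 1 and 2 and highest in K15SKO 3, and its groups overlapped. Slc2a1, of the same list, was not low in K15SKO 1 and 2, so this pattern is not that of the list.

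Of 10 genes of glucocorticoid and cAMP input, 2 were lower and 1 higher at an unadjusted p under 0.05, and 0 passed the adjusted threshold. Nr3c1, the glucocorticoid receptor, stood at 11.5, 11.4 and 14.7 FPKM in K15SKO libraries 1 to 3, against 19.6, 23.0 and 29.4 FPKM in MyoCre 1 to 3 (limma adjusted p = 0.248). Klf9, a Krüppel-like factor induced by glucocorticoids, stood at 29.6, 36.2 and 61.8 FPKM in K15SKO libraries 1 to 3, against 81.9, 62.2 and 70.6 FPKM in MyoCre 1 to 3 (limma adjusted p = 0.279). Sik1, a kinase induced by cAMP, was the higher one, at 5.08, 5.32 and 3.63 FPKM in K15SKO libraries 1 to 3, against 2.30, 1.84 and 2.18 FPKM in MyoCre 1 to 3 (limma adjusted p = 0.246). Per1, the fourth gene, overlapped between the groups.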
